A study of Sus scrofa with 40 samples.

Results

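The trapezius (TM), a muscle of the neck and shoulder, was set against the mean of 3 other meat cuts of the pig and against each of them. Its members are the 10 libraries titled TM, of 40 in all, and the genes described are those that set TM apart from the other cuts in the same direction. Messenger RNA was sequenced from Chalu black pigs, all male, sired by one boar and reared together. The groups were TM, LDM (the longissimus dorsi, a back muscle), HM (the hamstring, from the hind limb) and PB (pork belly), with 10 libraries each, all from animals fasted before slaughter and under no treatment named in the labels. Pieces were cut from left carcass sides, avoiding fascia, and the labels give no age. Libraries are numbered 1 to 10 in each cut, but whether equal numbers share an animal is not said, so a p-value measures the spread between libraries, part of which may be technical. Among the PB libraries, PB1 is titled as belly while its source and tissue fields name the longissimus.

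Skeletal muscles differ in their mix of slow fibres, which burn fat and sugar in mitochondria, and fast fibres, which rely more on glycolysis. Adult muscles also keep a record of where they formed along the body, since the HOX genes, transcription factors laid out in 4 clusters, are expressed in an order along the body axis that follows their order in the cluster. Low-numbered HOX genes mark the head and neck end and high-numbered ones the lumbar and tail end and the ends of the limbs, and the trapezius forms at the border of head and trunk.

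Total counts per library ran from 13994947 to 17735722 in TM and from 12305913 to 17735722 over all 40. Levels are CPM, read counts relative to the TMM-scaled size of the library, comparable between libraries but not between genes of unequal length. Summed levels of gene lists are instead relative to the unscaled library total and cover all list members in the table. Of 12 markers that define skeletal muscle, 9 were in the table and none of these had 0 counts in TM, and their summed level ranged from 116090 to 172590 CPM in TM, against 112320 to 160120 in LDM, 102500 to 166260 in HM and 115170 to 154690 in PB. The sums overlapped, but by the test below 5 of the 9 were lower in TM than the mean of the other cuts and 0 higher. Their median log2 change was -0.59, and 2.67% of all genes tested were lower. The 5 became 1 without TM2, TM5, TM9 or TM10. Among the pairs, 4 were lower and 1 higher than LDM, 0 passed against HM and 1 was lower than PB. Over the 1000 most variable genes, 9 of 10 TM libraries lay nearest to the mean of the other TM libraries. The library labelled TM7 lay nearest to LDM (r = 0.935, against 0.853 with TM), HM6 lay nearest to TM and HM9 nearest to LDM. PB1, with its conflicting labels, lay nearest to PB (r = 0.9185, against 0.8381 with LDM). Counts of genes without TM7 stand beside the results below. In tissue pieces like these, fewer cells of a type and less RNA per cell cannot be told apart.

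TM differed from the mean of the 3 other cuts in 657 of 11713 genes tested (edgeR quasi-likelihood test, Benjamini-Hochberg adjusted p under 0.05), which is 5.61% of them. Of these, 344 (2.94% of genes) were higher in TM and 313 (2.67%) lower, a share of 52.4% higher that became 71.8% with upper-quartile scaling. It became 40.3% with DESeq2, 41.3% with limma-voom and 38.2% without TM3 and TM7. The single pairs were far from equal. TM differed from LDM in 2898 genes (24.7%), with 1325 (11.3%) higher and 1573 (13.4%) lower, from PB in 2706 (23.1%), with 1135 (9.69%) higher and 1571 (13.4%) lower, and from HM in 90 (0.768%), with 48 (0.41%) higher and 42 (0.359%) lower. Against LDM the share higher in TM was 45.7%, or 56.9% with upper-quartile scaling. Against PB it was 41.9%, or 52.7% with upper-quartile scaling and 28.6% with the mitochondrial genes taken out of the scaling. A gene that passed in all 3 pairs with the same sign was rare, 7 genes or 0.0598%, of which 3 (0.0256%) were higher in TM (CEACAM1, INPP5J and HOXB2) and 4 (0.0342%) lower (PLCE1, CACHD1, HOXA9 and HOXA10). A change of at least 1 on the log2 scale in every pair was met by 1 higher gene, CEACAM1 (0.00854%), and 2 lower genes, HOXA9 and HOXA10 (0.0171%). The count of genes whose 10 TM libraries all lay above or all below the 30 others was 0. The 3 pairs share the TM libraries and are not independent of each other.

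Single TM libraries weighed on these counts. Against the mean, 657 genes became 1240 without TM7, 187 without TM2, 431 without TM4, 205 without TM5, 390 without TM9 and 171 without TM10. The 90 genes against HM became 52 without TM2 and 52 without TM4. The 7 genes became 18 without TM7, 12 without HM6, 11 without PB3, 4 without TM4, TM5, TM10 or HM8, and 3 without TM2.

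**Figure D1:**
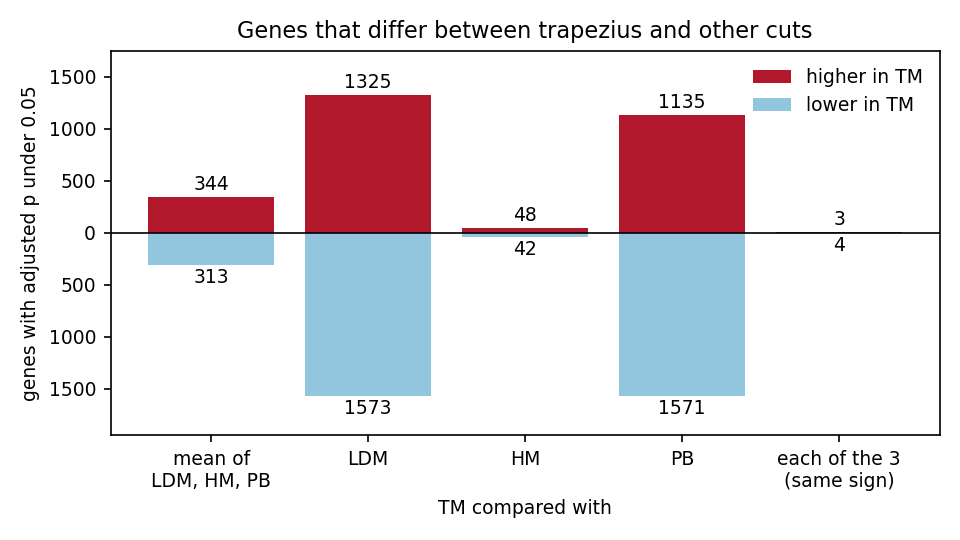
Number of genes (vertical axis) with an adjusted p under 0.05 when TM is compared with the mean of the other cuts, with LDM, HM and PB, and with each of the 3 in the same direction. Bars above 0 are genes higher in TM and bars below 0 genes lower in TM: 48 and 42 genes differed from HM, against 1325 and 1573 from LDM.

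Most genes called against the mean leaned the same way in every pair without passing in every pair. Of the 344 higher genes, 317 (92.2%) had a positive change in all 3 pairs, 291 passed against LDM, 179 against PB and 26 against HM. Of the 313 lower genes, 264 (84.3%) had a negative change in all 3 pairs, 198 passed against LDM, 212 against PB and 16 against HM. These counts follow in part from the definition of the mean.

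Of the 7 genes, 3 belong to the HOX family. HOXB2 (ENSSSCG00000017533, chromosome 12 from 24796533 to 24799536), a low-numbered member that patterns the hindbrain and neck, ranged from 1.37 to 5.89 CPM with a median of 3.15 in TM, against 1.07 to 2.02 (median 1.32) in LDM, 0.958 to 3.6 (median 1.42) in HM and 0.991 to 2.94 (median 2.08) in PB. The median of TM lay above the highest LDM and PB libraries, but only TM2 and TM6 lay above every library of the other cuts. The log2 change was 0.92 ± 0.18 (SE) from the mean (adjusted p = 0.00415), and 1.14 ± 0.24 from LDM, 0.92 ± 0.24 from HM and 0.69 ± 0.24 from PB (adjusted p = 0.000541, 0.0467 and 0.0294). It passed in all 3 pairs with 16 of 40 libraries left out in turn. The adjusted p against HM was 0.0502 to 0.146 without TM1, TM2, TM4, TM6, TM9, TM10, LDM1, LDM6, LDM8, HM1, HM2, HM4, HM5, HM7, HM8, HM9, HM10, PB5 or PB6, and that against PB 0.0526 to 0.0907 without TM2, TM6, TM8, PB1, PB2, PB8 or PB9.

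HOXA9 and HOXA10, which act further towards the tail end and in the limbs, were nearly silent in TM. HOXA9 (ENSSSCG00000028997, chromosome 18 from 45408377 to 45411510) ranged from 0 to 0.397 CPM with a median of 0.0658 in TM, against 0.243 to 29.8 (median 0.969) in LDM, 19.3 to 59.8 (median 41.0) in HM and 0 to 149.9 (median 0.600) in PB. All HM libraries lay far above all TM libraries, while LDM and PB overlapped TM at their low ends and owed their high ends to 2 libraries each, LDM3 (29.8) and LDM4 (27.6), PB9 (149.9) and PB10 (78.4). The fitted log2 change was -6.96 ± 1.31 from the mean (adjusted p = 0.00235), -5.47 from LDM, -8.11 from HM and -7.31 from PB (adjusted p = 0.00282, 0.000721 and 0.000158). Without LDM3, LDM4, PB9 and PB10, an alternative added after the values were seen, the other LDM libraries ranged from 0.243 to 2.09 CPM and the other PB libraries from 0 to 1.03. The gene still passed in all 3 pairs, at -2.76 from LDM and -1.74 from PB (adjusted p = 0.000392 and 0.0363). With limma-voom it did not pass against PB (adjusted p = 0.123).

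HOXA10 (ENSSSCG00000021204, chromosome 18 from 45393712 to 45403257) had 1 count over the 10 TM libraries, in TM7, against 291 counts in LDM, 2877 in HM and 853 in PB. In CPM it ranged from 0 to 0.0491 in TM, against 0 to 9.98 (median 0.0738) in LDM, 6.87 to 28.9 (median 19.9) in HM and 0 to 36.3 (median 0) in PB. HM was again apart from TM in every library, and in LDM and PB the same 4 libraries held nearly all the counts. Relative to library totals the ratio of LDM to TM was 288.6 (95% interval 51.4 to 11438, exact, counting error only), that of HM to TM 2930 (525 to 115760) and that of PB to TM 910 (163 to 36004). Without TM7, where TM has 0 counts, HOXA10 was at least 86.3-fold higher in LDM, 876-fold in HM and 272-fold in PB, with a floor of 3 counts over the TM libraries. The fitted log2 change from the mean was -8.77 ± 1.76 (adjusted p = 0.00456), a value that depends on the prior count. Without LDM3, LDM4, PB9 and PB10 the call against PB ended (log2 change -0.97, adjusted p = 0.531), with 8 counts left in LDM and 2 in PB, and with limma-voom the adjusted p was 0.149 against LDM and 0.132 against PB.

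**Figure D2:**
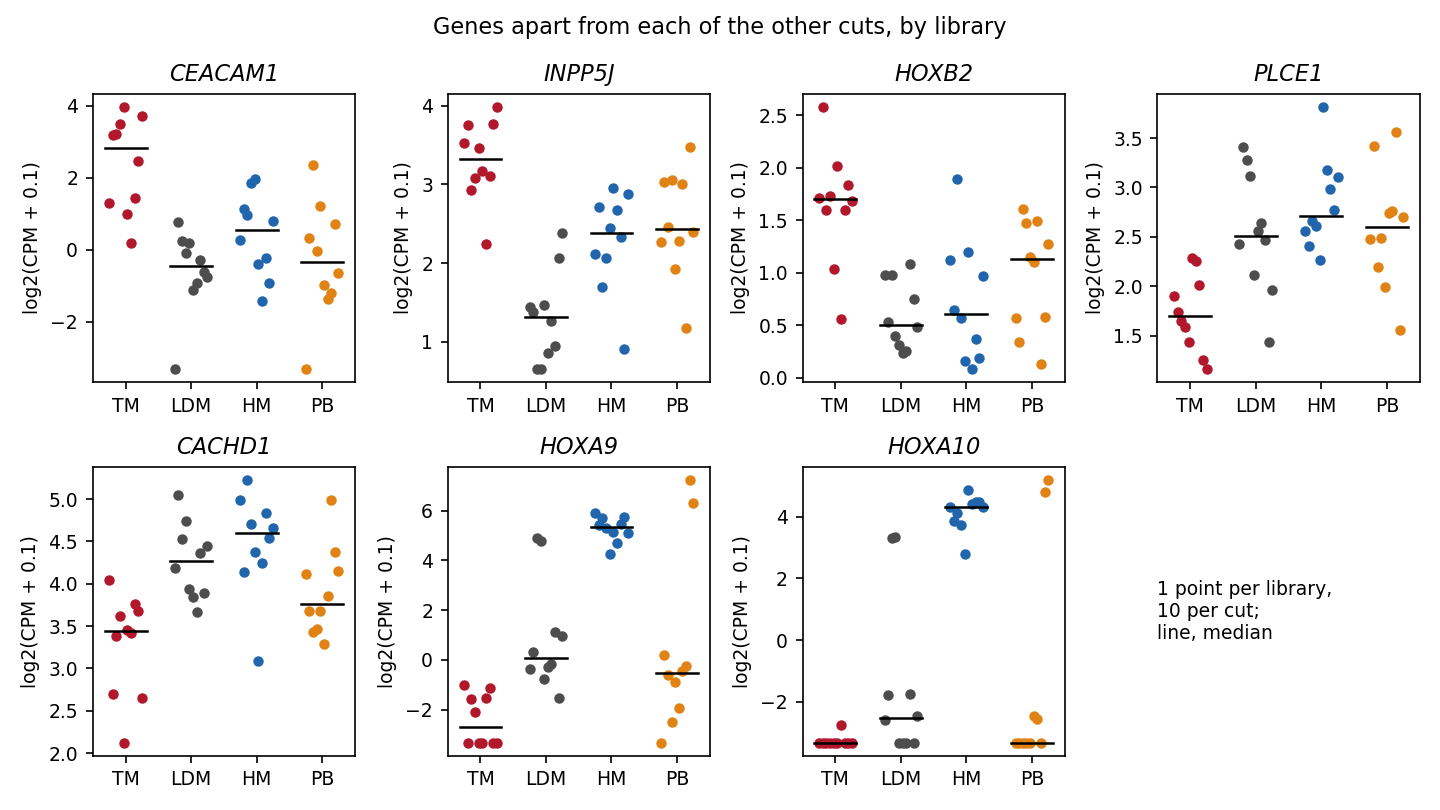
Level of the 7 genes that passed in all 3 pairs, as log2(CPM + 0.1) on the vertical axis, 1 point per library and a line at the median of each cut. HOXA9 and HOXA10 lie high in all HM libraries and in 2 libraries each of LDM and PB, and near the floor in TM, while the other 5 genes overlap between TM and the other cuts.

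The rest of the HOX family is taken by number, from the head end to the tail end. Of 11 genes tested of groups 1 to 5, 5 were higher in TM than the mean and 0 lower (HOXB2, HOXB3, HOXB4, HOXC4 and HOXC5), with a median log2 change of 0.89 against 0.005 over all genes tested. By DESeq2 there were 4 higher and 1 lower than the mean. Among the pairs, 5 were higher and 1 lower than LDM, 2 higher and 1 lower than HM, and 3 higher and 0 lower than PB. Over all genes tested, 2.94% were higher than the mean and 2.67% lower. Without TM10 the adjusted p of HOXC4 was 0.0807, and without TM2 that of HOXB4 was 0.0597. Of 9 genes of groups 6 to 9, 2 were higher (HOXB6, HOXC6) and 2 lower (HOXA7, HOXA9). The call of HOXC6 was close to the threshold. It ended in 25 of 40 fits with a library left out (adjusted p = 0.0505 to 0.191), those without TM1, TM4, TM5, TM7, TM8, TM10, LDM1 to LDM7, HM1 to HM5, HM7, HM9, PB3, PB5, PB8, PB9 or PB10. The adjusted p of HOXB6 was 0.0626 without TM6, and with limma-voom neither passed (adjusted p = 0.456 for HOXC6 and 0.126 for HOXB6). Without TM7 3 genes were lower. Of 12 genes of groups 10 to 13 in the list, 5 reached the filter on low counts. Of these 5, 0 were higher and 4 lower (HOXA10, HOXA11, HOXC10 and HOXC11), and all 5 passed against HM. HOXA10, HOXA11 and HOXA13 reached the filter through HM, where they were high, so their calls against HM follow in part from the filter. HOXA11, for example, had 2 counts in TM, 7 in LDM, 1075 in HM and 7 in PB. The call of HOXA11 ended without PB10 (log2 change -2.85, adjusted p = 0.989), and by DESeq2 all 5 were lower than the mean. These directions were the same under the 3 other scalings.

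HOXB3, the neighbour of HOXB2 in its cluster, ranged from 1.24 to 4.30 CPM (median 1.66) in TM, against 0.267 to 1.5 (median 1.10) in LDM, 0.278 to 1.58 (median 1.05) in HM and 0.0826 to 1.47 (median 0.893) in PB. In 6 TM libraries it lay above all 30 others. It was higher by 1.21 ± 0.25 from the mean (adjusted p = 0.00456), by 1.2 from LDM and 1.26 from PB (adjusted p = 0.00559 and 0.00459), and its change from HM was 1.17 (adjusted p = 0.0754). HOXC5 ranged from 0.0601 to 10.5 CPM (median 4.97) in TM, against 0.576 to 5.83 (median 2.32) in LDM, 0 to 0.562 (median 0.0743) in HM and 0.512 to 9.12 (median 2.41) in PB. It passed against HM only among the pairs (log2 change 5.04 ± 0.66, adjusted p = 3.94e-06), and its change from the mean was 2.23 ± 0.40 (adjusted p = 0.00137).

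HOXC10, a gene of the lumbar region and hind limb, ranged from 0 to 2.31 CPM (median 0.0296) in TM, against 5.20 to 100 (median 13.7) in LDM, 33.6 to 78.9 (median 57.8) in HM and 0 to 3.26 (median 0.706) in PB. TM lay below every LDM and HM library and overlapped PB. The log2 change was -6.27 ± 0.76 from LDM and -7.20 ± 0.78 from HM (adjusted p = 1.34e-06 and 5.02e-08), and -1.78 ± 0.77 from PB (adjusted p = 0.087). Without TM7, its highest TM library, the change from PB was -3.41 (adjusted p = 0.00347). HOXA13, the last gene of its cluster, had 0 counts in TM and in LDM, against 2310 in HM and 9 in PB, so that HM was at least 784-fold higher than the floor of 3 counts over the TM libraries. HOXA7, a trunk-level gene, fell by 1.89 ± 0.44 from the mean on the log2 scale (adjusted p = 0.0129) and missed the threshold against LDM (adjusted p = 0.0541). Without LDM3, LDM4, PB9 and PB10 its call against PB ended (adjusted p = 0.381).

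The TM libraries were not alike in their HOX genes, and the library values below were chosen after they were seen. In TM2 and TM9, HOXC6 stood at 0.721 and 0.811 CPM, against 6.91 to 38.1 in the 8 other TM libraries, and HOXC9 at 0.120 and 0, against 0.953 to 15.8. The low-numbered HOXA3 was at 14.7 and 10.5 CPM in TM2 and TM9, against 1.61 to 3.65 in the others. TM7 stood at the other end, with the highest HOXC8 (33.2 CPM), HOXC9 (15.8) and HOXC10 (2.31) of the TM libraries. HOXC8 ranged from 20.4 to 37.0 CPM in LDM and HOXC9 from 8.70 to 25.6, so that TM7 lay within LDM for both. HOXD8 was at 30.5 to 84.9 CPM in TM5, TM6, TM7 and TM10, against 2.16 to 12.6 in the other 6.

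**Figure D3:**
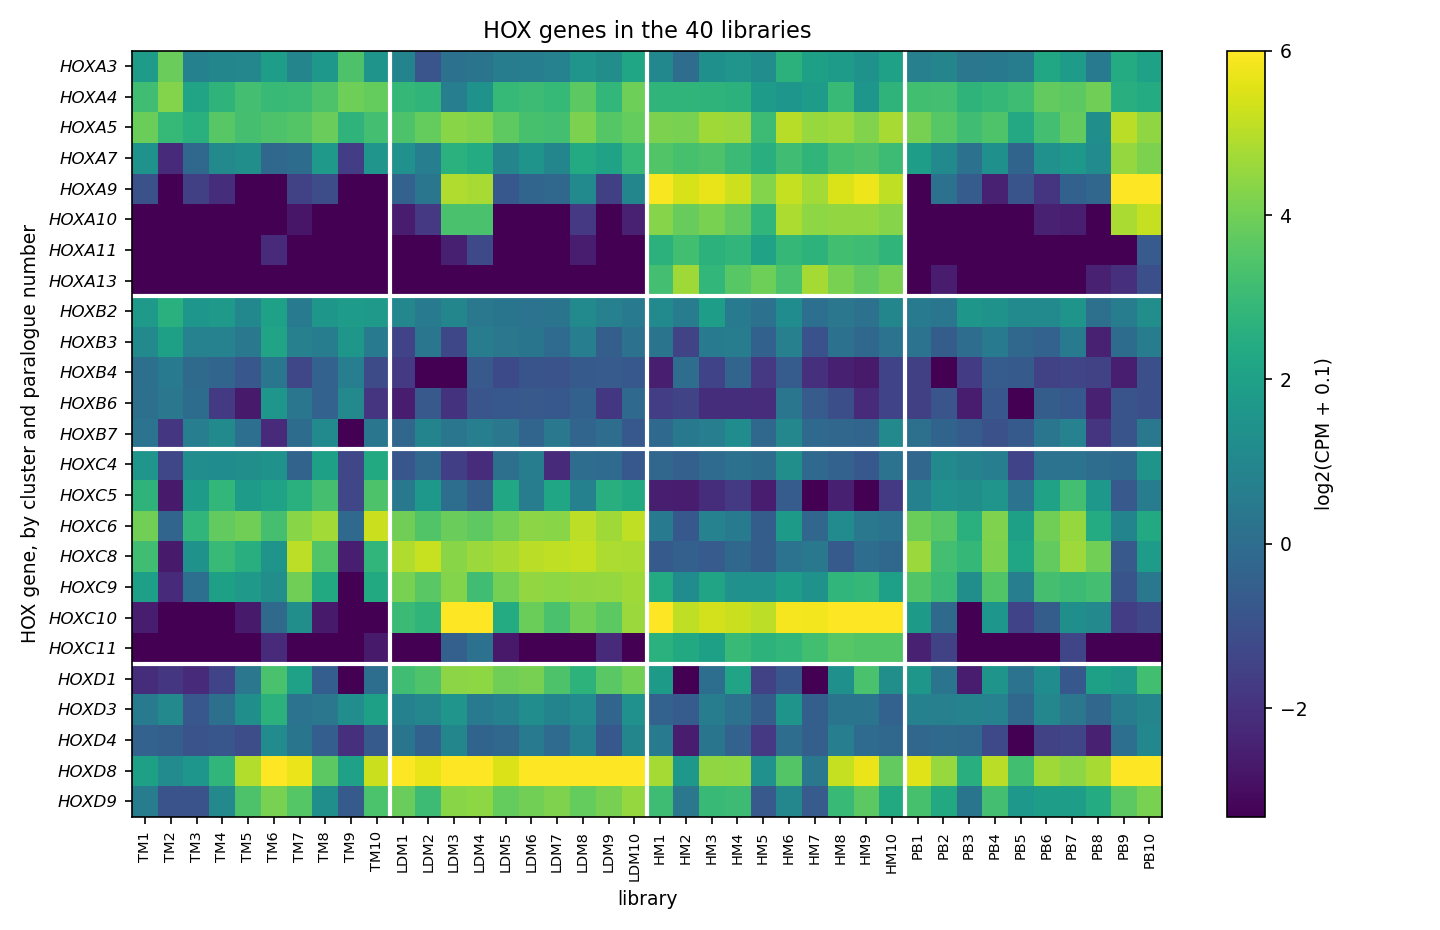
Level of each HOX gene tested (rows, by cluster and number) in each of the 40 libraries (columns), as log2(CPM + 0.1), with the colour capped at 6. HOXA9 to HOXA13 and HOXC10 are dark in TM and bright in HM, HOXC6 and HOXC9 are dark in TM2 and TM9, and LDM3, LDM4, PB9 and PB10 are bright in HOXA9 and HOXA10.

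Other transcription factors of body position also differed. Of 17 tested, 8 were higher in TM than the mean and 1 lower, with a median log2 change of 0.50. The shares over all genes tested were 2.94% higher and 2.67% lower. IRX3, an Iroquois homeobox factor, ranged from 2.26 to 196 CPM (median 74.1) in TM, against 1.79 to 21.6 (median 5.27) in LDM, 0.137 to 1.45 (median 0.818) in HM and 16.9 to 79.4 (median 49.7) in PB. The TM libraries fell apart, with 56.0 to 196 CPM in TM1, TM2, TM3, TM4, TM8 and TM9 and 2.26 to 8.59 in TM5, TM6, TM7 and TM10, the same 4 that were high in HOXD8. It rose by 3.50 ± 0.41 from the mean (adjusted p = 1.7e-06), by 3.36 from LDM and 6.52 from HM, while the change from PB was 0.63 ± 0.53 (adjusted p = 0.414). SIM1, the 1 that fell, averaged 0.323 CPM ± 0.382 in TM, against 4.02 ± 3.36 in LDM, 0.213 ± 0.542 in HM and 11.8 ± 9.72 in PB (mean ± SD over 10 libraries, as for the means below), a log2 change of -2.78 ± 0.65 from the mean (adjusted p = 0.0129). Without HM6, the library that lay nearest to TM, the call of SIM1 ended (-2.04, adjusted p = 0.0874).

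MEOX1 and TBX18, factors of the somites, leaned the same way in every pair. MEOX1 ranged from 6.65 to 86.2 CPM (median 18.9) in TM, against 4.01 to 8.35 (median 5.24) in LDM, 4.52 to 20.9 (median 12.2) in HM and 4.39 to 21.0 (median 11.4) in PB, and was higher by 1.39 ± 0.26 from the mean (adjusted p = 0.00197). The highest library, TM2, held part of it, and without TM2 the change was 0.89 (adjusted p = 0.0321). TBX18 was higher by 0.95 ± 0.21 from the mean (adjusted p = 0.00898) and by 1.11 from LDM and 0.94 from PB, and its change from HM was 0.81 (adjusted p = 0.168), or 1.06 without HM6 (adjusted p = 0.0322). EN1, engrailed, was higher by 1.55 ± 0.39 (adjusted p = 0.0183), and its adjusted p was 0.0508 without TM5 and 0.224 without TM10, where the change was 0.82.

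Factors of the head and pharyngeal muscles, to which the trapezius is related in development, gave no call against the mean with all libraries. Of 14 in the list 5 were tested, 0 passed by edgeR, 0 by DESeq2, and 1 had an unadjusted p under 0.05. TBX1 ranged from 9.23 to 103 CPM (median 16.1) in TM, against 9.19 to 21.9 (median 14.6) in LDM, 9.36 to 204 (median 21.0) in HM and 9.74 to 74.1 (median 21.6) in PB. Its high TM libraries were TM5, TM6 and TM10 (76.3, 103 and 86.7), and the other TM libraries lay within the range of LDM. The change from the mean was 0.53 ± 0.40 (adjusted p = 0.459). It varied with single libraries, at 0.33 without TM5, 0.16 without TM6, 0.27 without TM10 and 0.84 without HM6, none of which passed, and without HM6, HM9, TM3 and TM7 together it was 1.11 and passed (adjusted p = 0.0232). EYA4, a transcriptional coactivator of the eyes absent family, had a change of -0.56 ± 0.24 (adjusted p = 0.155). It passed without TM7 (-0.75, adjusted p = 0.0453), without TM3 and TM7 (0.0353), without HM6, HM9, TM3 and TM7 (0.0419) and with limma-voom (0.025).

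Outside the HOX family, 4 genes passed in all 3 pairs. CEACAM1 (ENSSSCG00000020837, chromosome 6 from 49437335 to 49460614), a cell adhesion protein of the immunoglobulin superfamily, ranged from 1.03 to 15.7 CPM (median 7.26) in TM, against 0 to 1.60 (median 0.632) in LDM, 0.274 to 3.82 (median 1.38) in HM and 0 to 5.03 (median 0.703) in PB. In TM2, TM3, TM4, TM5, TM9 and TM10 it lay above every library of the other cuts, and in TM1, TM6, TM7 and TM8 among them. The log2 change was 2.66 ± 0.39 from the mean (adjusted p = 7.2e-05), 3.32 ± 0.58 from LDM, 2.14 ± 0.54 from HM and 2.51 ± 0.55 from PB (adjusted p = 6.7e-05, 0.0441 and 0.000984). The call against HM was close to the threshold. Its adjusted p was 0.0502 to 0.0970 without TM2, TM4, TM5, TM10, LDM8, HM1, HM2, HM3, HM6, HM7, HM8, HM9 or HM10, and leaving out any of the other 27 did not end the call. With no filter on low counts it was 0.0618.

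INPP5J and PLCE1 both act on membrane phosphoinositides, lipids that relay signals from the cell surface. INPP5J (ENSSSCG00000030345, chromosome 14 from 47913405 to 47927112), a phosphatase that removes the 5-phosphate, ranged from 4.61 to 15.8 CPM (median 9.92) in TM, against 1.47 to 5.10 (median 2.40) in LDM, 1.77 to 7.61 (median 5.13) in HM and 2.15 to 11 (median 5.28) in PB. Only TM7 lay within the range of LDM, and most TM libraries lay above HM. It rose by 1.25 ± 0.19 from the mean (adjusted p = 0.000152), by 2.0 ± 0.26 from LDM, 1.01 ± 0.25 from HM and 0.75 ± 0.25 from PB (adjusted p = 3e-06, 0.0441 and 0.0272). The adjusted p against HM was 0.0565 to 0.0989 without TM1, TM2, TM4, TM5, TM9, TM10, HM1, HM3, HM4, HM5 or HM8, and that against PB 0.0525 to 0.0647 without TM2, TM5, TM10 or PB8.

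PLCE1 (ENSSSCG00000010483, chromosome 14 from 105458916 to 105764731), phospholipase C epsilon, which cleaves phosphatidylinositol bisphosphate, ranged from 2.14 to 4.77 CPM (median 3.14) in TM, against 2.61 to 10.5 (median 5.60) in LDM, 4.71 to 14.0 (median 6.46) in HM and 2.85 to 11.7 (median 5.96) in PB. TM and HM overlapped by TM6 alone, and the medians of all 3 other cuts lay above the highest TM library. The log2 change was -1.0 ± 0.20 from the mean (adjusted p = 0.00456), -0.90 from LDM, -1.15 from HM and -0.95 from PB (adjusted p = 0.00497, 0.00687 and 0.00348). Among the 7 genes it was the one that passed in all 3 pairs under all 13 alternatives and with each of the 40 libraries left out.

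CACHD1 (ENSSSCG00000004829, chromosome 6 from 147775042 to 148305330), which encodes a relative of the alpha2delta subunits of voltage-gated calcium channels, ranged from 4.26 to 16.5 CPM (median 10.7) in TM, against 12.6 to 32.9 (median 19.3) in LDM, 8.38 to 37.3 (median 24.2) in HM and 9.68 to 31.6 (median 13.5) in PB. The cuts overlapped, most of all TM and PB. The log2 change was -0.92 ± 0.20 from the mean (adjusted p = 0.00713), -0.95 from LDM, -1.2 from HM and -0.61 from PB (adjusted p = 0.00239, 0.00344 and 0.0491). The last of these rested on single libraries, with an adjusted p of 0.0502 to 0.148 without TM2, TM4, TM5, TM10, LDM3, LDM4, LDM6, LDM10, HM1, HM2, HM5, HM8, HM10, PB1, PB7, PB8, PB9 or PB10, of 0.0716 with upper-quartile scaling and of 0.0909 with limma-voom.

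A wider set was chosen after the values were seen: genes called against the mean whose change had the same sign in all 3 pairs, the 25 higher and 25 lower genes with the largest smallest change. Among enzymes, ALDH3A2, which oxidises fatty aldehydes, ranged from 26.8 to 112 CPM (median 70.4) in TM, against 20 to 39.4 (median 28.5) in LDM, 23.3 to 88.4 (median 34.9) in HM and 15.7 to 59.3 (median 31.9) in PB. The median of TM lay above every LDM and PB library. It rose by 1.06 ± 0.17 from the mean (adjusted p = 0.000332), with an adjusted p of 0.058 against HM, where the change was 0.85 ± 0.23, and of 0.0189 there by DESeq2 and 0.0185 without TM7. PFKL, the liver-type phosphofructokinase, averaged 73.8 CPM ± 44.5 in TM, against 16.3 ± 3.62 in LDM, 38.8 ± 16.3 in HM and 36.2 ± 13.9 in PB, a change of 1.38 ± 0.21 from the mean (adjusted p = 0.000142).

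Of the regulators in that set, ESRRA, a nuclear receptor that drives mitochondrial genes, ranged from 7.95 to 42.2 CPM (median 27.0) in TM, against 4.96 to 12.5 (median 8.81) in LDM, 7.15 to 28.2 (median 11.7) in HM and 6.79 to 16.3 (median 9.95) in PB. It lay above every PB library in TM2, TM3, TM4, TM5, TM8, TM9 and TM10. It rose by 1.23 ± 0.20 from the mean (adjusted p = 0.000311), by 1.52 from LDM and by 1.37 from PB, and its change from HM was 0.80 (adjusted p = 0.137). RFLNA, which binds the actin cross-linker filamin, ranged from 0.589 to 233 CPM (median 41.3) in TM, against 0.319 to 2.94 (median 1.5) in LDM, 2.26 to 38.3 (median 15.1) in HM and 17.7 to 83.7 (median 27.6) in PB. TM7 was the lowest TM library and lay within LDM, while TM9 and TM10 were the highest of all 40. The log2 change was 3.16 ± 0.43 from the mean (adjusted p = 2.42e-05), and among the pairs it passed against LDM only. The change was 2.29 from HM (adjusted p = 0.051) and 1.36 from PB (adjusted p = 0.0825), and without TM7 both passed (adjusted p = 0.0128 and 0.0368). AQP7, a glycerol channel of fat and muscle, rose by 1.29 ± 0.26 (adjusted p = 0.00387) and FZD4, a receptor of Wnt ligands, by 1.04 ± 0.22 (adjusted p = 0.00594). ADAMTS8, a secreted metalloprotease, was higher by 2.40 ± 0.58 (adjusted p = 0.0152), but TM4 (75.9 CPM) and TM5 (67.7) stood far above the 1.72 to 13.8 of the other TM libraries, and without TM4 or TM5 the adjusted p was 0.0700 or 0.0740.

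On the lower side, MSTN, myostatin, a secreted brake on muscle growth, ranged from 0.178 to 0.811 CPM (median 0.562) in TM, against 0.485 to 7.66 (median 1.32) in LDM, 0.460 to 2.75 (median 1.29) in HM and 1.16 to 6.60 (median 2.96) in PB. Every TM library lay below every PB library, at levels of few reads. It fell by 2.03 ± 0.37 from the mean on the log2 scale (adjusted p = 0.00178), by 2.12 from LDM and by 2.52 from PB, and its change from HM was -1.47 (adjusted p = 0.0888). MYH8, the perinatal myosin heavy chain, ranged from 3.08 to 12.4 CPM (median 7.0) in TM, against 16.6 to 52.3 (median 32.8) in LDM, 4.86 to 26.1 (median 14.9) in HM and 3.92 to 85.4 (median 15.6) in PB. All TM libraries lay below all LDM libraries, and the change from the mean was -1.57 ± 0.32 (adjusted p = 0.00456).

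Signalling and metabolic genes followed on that side. PBX3, a partner of HOX proteins on DNA, ranged from 1.56 to 4.66 CPM (median 2.17) in TM, against 4.16 to 21.9 (median 6.10) in LDM, 2.74 to 6.75 (median 3.55) in HM and 1.81 to 20.1 (median 4.02) in PB, and fell by 1.19 ± 0.29 from the mean (adjusted p = 0.0148). MLLT3, a transcription elongation factor, fell by 1.43 ± 0.29, HOMER1, a scaffold of calcium signalling, by 1.05 ± 0.25, and PHKB, a subunit of the kinase that starts glycogen breakdown, by 0.96 ± 0.21 (adjusted p = 0.00456, 0.0132 and 0.00814). Each of these 4 genes missed the threshold against HM and passed against LDM and PB, except that without PB8 the adjusted p of PBX3 against PB was 0.0525.

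**Figure D4:**
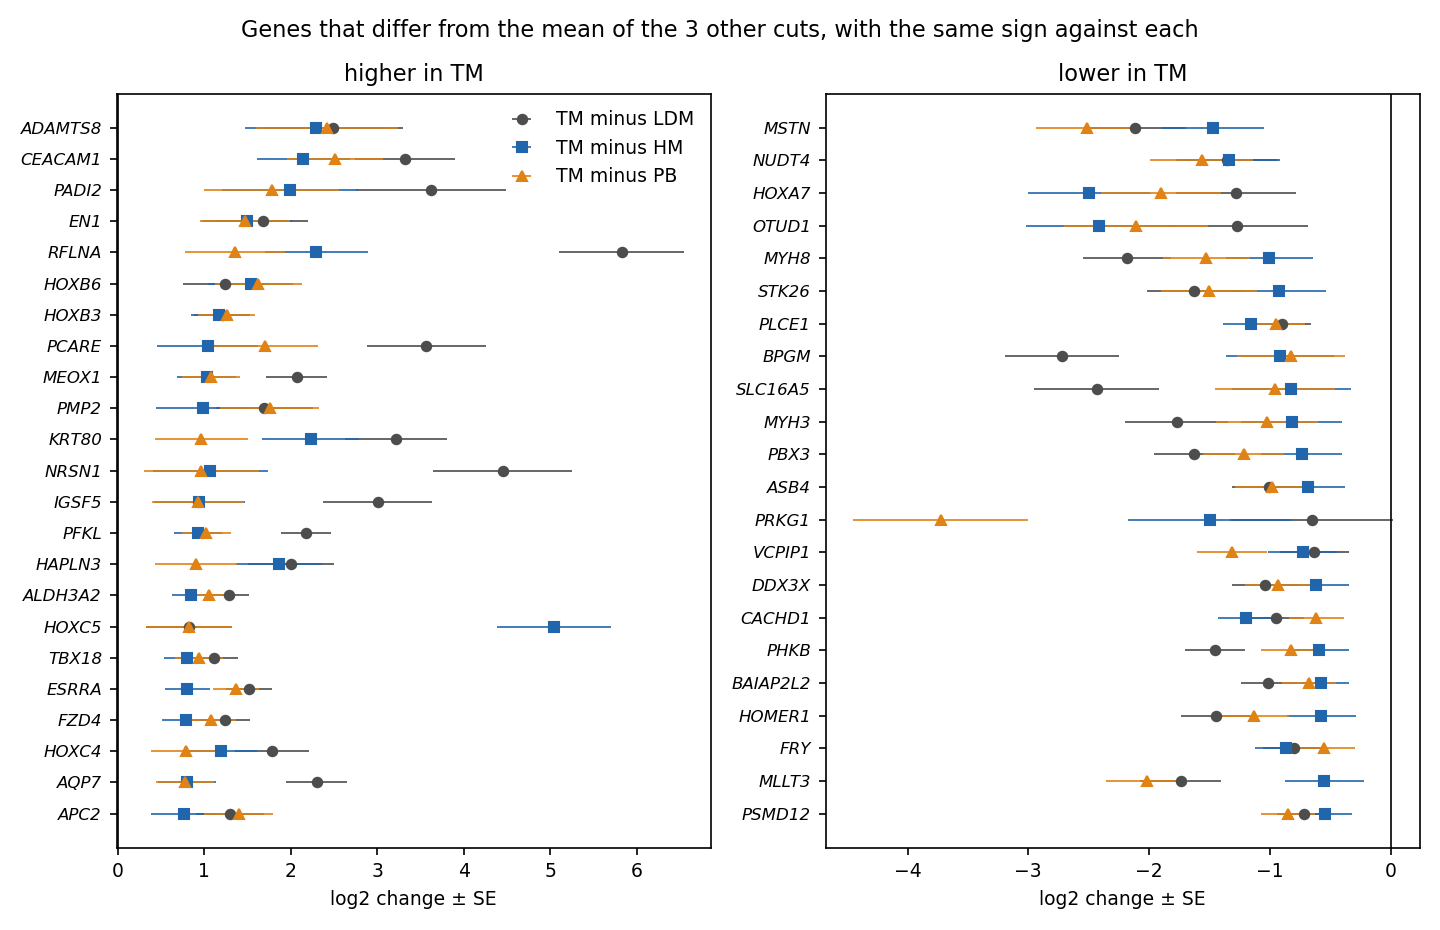
Log2 change ± SE of TM minus LDM, TM minus HM and TM minus PB for genes of the wider set, those higher in TM on the left and lower on the right, without HOXA9, HOXA10 and HOXC10, whose changes are larger. The HM change lies nearest to 0 for ALDH3A2 (0.85), MSTN (-1.47) and MLLT3 (-0.55), and farthest from 0 for HOXC5 (5.04).

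Nearly all slow and fast fibre genes differed between TM and LDM, and 1 at most passed against HM or PB. Against the mean, 2.94% of all genes tested were higher in TM and 2.67% lower. Of all genes tested, 24.7% passed against LDM, 0.768% against HM and 23.1% against PB. The lack of calls against HM is thus not particular to fibre genes. Of 13 slow fibre genes, 10 rose from the mean and 0 fell, with a median log2 change of 0.88. Against LDM 13 of 13 rose (median 1.94), while against HM 0 passed (median 0.24) and against PB 0 passed (median 0.37), also by DESeq2, and 1 and 0 had an unadjusted p under 0.05. Of 16 fast fibre genes 10 fell from the mean and 0 rose (median -0.71), with 15 lower than LDM and 1 lower than PB. Against HM 0 passed by edgeR and 0 by DESeq2, with 6 at an unadjusted p under 0.05. Without TM7, 1 slow fibre gene was higher than HM and 4 fast fibre genes were lower than PB. Of 16 glycolysis and glycogen genes 8 fell and 0 rose (median -0.77), with 15 lower and 1 higher than LDM, HK2.

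The slow myosin heavy chain MYH7 ranged from 4399 to 73050 CPM (median 33550) in TM, against 3948 to 16387 (median 8808) in LDM, 7609 to 43581 (median 26054) in HM and 13364 to 36393 (median 27929) in PB. TM7 held the lowest value of TM, within LDM, and TM5, TM9 and TM10 lay above every library of the other cuts. It rose by 0.93 ± 0.25 from the mean (adjusted p = 0.0221) and by 1.93 ± 0.33 from LDM (adjusted p = 5.13e-05), with 0.50 ± 0.32 from HM and 0.37 ± 0.32 from PB (adjusted p = 0.541 and 0.419). Against the mean its adjusted p was 0.0546 without TM2, 0.0671 without TM5, 0.0516 without TM9 and 0.105 without TM10. ATP2A2, the calcium pump of slow fibres, rose by 1.16 ± 0.22 from the mean (adjusted p = 0.00197) with 4185 CPM ± 1662 in TM, against 924 ± 356 in LDM, 2235 ± 935 in HM and 3180 ± 1117 in PB. Its adjusted p was 0.122 against HM and 0.317 against PB. The gene model that spans the fast myosins MYH4, MYH1 and MYH2, MYH4-MYH1-MYH2, fell by 0.73 ± 0.20 (adjusted p = 0.0241), and its adjusted p was 0.0575 without TM2, 0.0618 without TM5, 0.0526 without TM9 and 0.0767 without TM10. How reads shared by these closely similar genes were counted was not stated.

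These list counts against the mean varied with single TM libraries. The 10 slow fibre genes became 11 without TM7, but 2 without TM2, 2 without TM5, 4 without TM9 and 1 without TM10, and the 10 lower fast fibre genes became 6 without TM3, 5 without TM8, 1 without TM9 and 0 without TM2, TM5 or TM10. The 8 lower glycolysis genes became 13 without TM7, 5 without TM3, 3 without TM2, TM5 or TM9 and 2 without TM10. With upper-quartile scaling 5 glycolysis genes were lower, and with limma-voom 13. Without the libraries numbered 8 the counts were 3 slow fibre genes higher, 0 fast fibre genes lower and 3 glycolysis genes lower, and without LDM3, LDM4, PB9 and PB10 they were 4, 2 and 5.

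Mitochondrially encoded genes moved in opposite directions between the pairs. They took 7.53% ± 1.80 of the counts in TM, against 4.97% ± 0.827 in LDM, 9.12% ± 1.53 in HM and 12.5% ± 1.96 in PB, given as mean ± SD over 10 libraries. Of 12 tested, 11 were higher in TM than in LDM, a count of 7 without TM9, and 11 were lower than in PB. Against HM 0 passed by edgeR, 2 by DESeq2 and 7 with limma-voom, with 11 of 12 at an unadjusted p under 0.05. CYTB, cytochrome b, ranged from 2990 to 7064 CPM (median 4831) in TM, against 2669 to 5677 (median 3702) in LDM, 4556 to 8457 (median 6821) in HM and 9175 to 14500 (median 12574) in PB. Against the mean 7 were lower, which became 4 without TM1 or TM4 and 1 without TM2 or TM5, and no member had the same sign in all 3 pairs. The nuclear genes of oxidative phosphorylation gave 0 calls of 40 against the mean by edgeR and 0 by DESeq2, with 4 at an unadjusted p under 0.05. Of all genes tested, 5.61% passed against the mean by edgeR. Of 23 genes that take up or oxidise fatty acids, 5 were higher than the mean and 0 lower (CPT1B, CPT2, ACADVL, ECI2 and LPL), a count of 8 without TM7, 2 without TM9 and 0 without TM2, TM5 or TM10. From LDM 16 rose and 1 fell, and from PB 4 fell. Over all genes tested, 11.3% were higher than in LDM and 13.4% were lower than in PB.

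**Figure D5:**
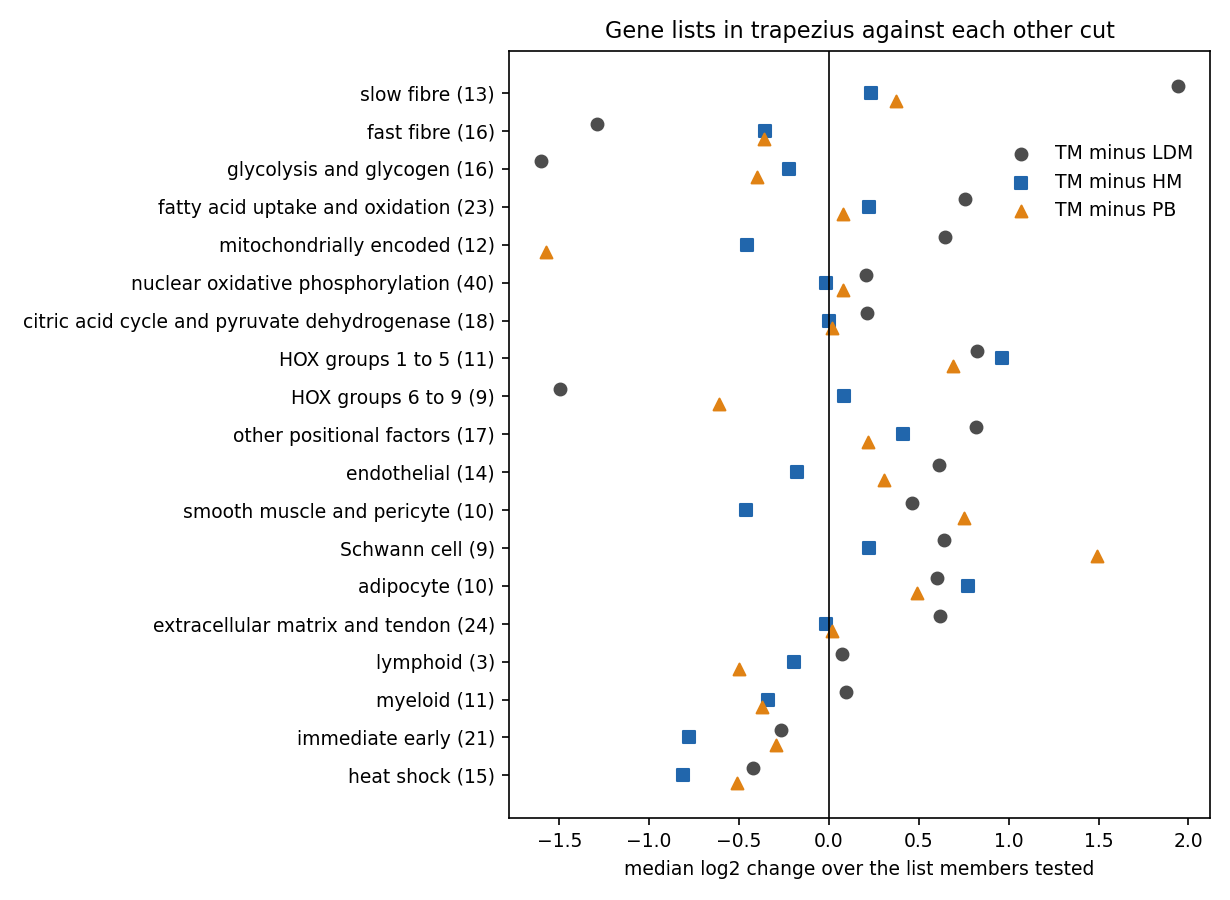
Median log2 change over the tested members of each gene list (number tested in brackets) for TM minus LDM, TM minus HM and TM minus PB. Slow fibre lies at 1.94, 0.24 and 0.37, mitochondrially encoded genes lie on opposite sides of 0 for LDM and PB, and HOX groups 1 to 5 lie between 0.69 and 0.96 in all 3 pairs.

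Few markers of other cell types passed against the mean, but the medians of the adipocyte and Schwann cell lists were not near 0. Of all genes tested 5.61% passed against the mean, so lists this short can have few calls or none. Of 14 endothelial genes 0 passed (1 at an unadjusted p under 0.05, 0 by DESeq2, and 1 called without TM7, LDM10, HM2 or PB5), with a summed level of 525.6 to 1141 CPM in TM, against 438.5 to 582.6 in LDM, 501 to 1519 in HM and 374.6 to 750.8 in PB, and 10 of them were higher than in LDM. Of 10 adipocyte genes 2 rose (AQP7, PLIN4) and 1 fell (GPD1), with a median log2 change of 0.65. The summed level of the list was 882 to 1602 CPM (median 1318.8) in TM and 999 to 2116 (median 1650.5) in LDM. It was 463 to 1530 (median 994.5) in HM and 511 to 1322 (median 1013.6) in PB, so the median sum was highest in LDM. The adjusted p of PLIN4 was 0.0502 to 0.133 without TM1, TM2, TM4, TM5, TM8 or TM10. That of GPD1 was 0.0532 to 0.115 without TM2, TM3, TM4, TM5, TM8, TM9, TM10, LDM6, LDM7, HM1, HM8, HM9, PB6 or PB10, and 0.0709 with upper-quartile scaling. Of 9 Schwann cell genes 2 rose (PMP2, PMP22) and 5 had an unadjusted p under 0.05, with a median log2 change of 0.74. Their list summed to 101 to 438 CPM (median 137.7) in TM and 112 to 267 (median 194.7) in LDM. It summed to 91.8 to 392 (median 136.9) in HM and 57.2 to 136 (median 92.9) in PB, so the median sum was again highest in LDM. From PB 6 of the 9 rose (median 1.49), or 3 without TM6 and 2 with limma-voom. The adjusted p of PMP2 was 0.597 without TM6, its highest library at 27.5 CPM, and 0.0539 without TM2. By DESeq2 its change was 0.32 (adjusted p = 0.628) and by limma-voom 0.60 (adjusted p = 0.263). The adjusted p of PMP22 was 0.0622 to 0.0945 without TM2, TM5, TM6 or TM10. Myeloid and lymphoid markers gave 0 calls of 11 and 0 of 3 against the mean (0 by DESeq2, 0 at an unadjusted p under 0.05), with LYZ and CD3G at 0 counts in TM. Among the pairs, 1 myeloid gene was higher than in LDM. By edgeR 2 of the 3 lymphoid genes were lower than in PB, where 13.4% of all genes tested were. PTPRC was among them (log2 change -1.36, adjusted p = 0.0237), and with single libraries left out the count was 1 to 2. The part of these cell types in the results above was not tested.

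Against the mean, 4 further genes kept for description whatever their result did not pass with all libraries. PPARGC1A, a coactivator of mitochondrial genes, had a log2 change of 0.47 ± 0.52 (adjusted p = 0.631), STAC2, a partner of calcium channels, of 1.11 ± 0.51 (adjusted p = 0.184), ADIPOQ, the fat cell hormone adiponectin, of 0.66 ± 0.45 (adjusted p = 0.392), and PTPRC, the leukocyte surface protein CD45, of -0.59 ± 0.38 (adjusted p = 0.363). STAC2 passed without HM6 (1.43, adjusted p = 0.0462), without HM6, HM9, TM3 and TM7 (1.55, adjusted p = 0.0214) and with limma-voom (1.65, adjusted p = 0.0145).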

How the data were processed

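RNA from 40 muscle libraries, 10 of each of 4 cuts, was prepared with a stranded KAPA kit, per the labels' protocols. How strand was handled in counting was not given in the sources used here. Per the submitters' processing notes, the tools were HTSeq 0.9.1, HISAT2 2.0.5 and cutadapt 1.15, with the build Sscrofa11.1. The deposited table holds raw read counts and FPKM of 21280 genes per library, per the file headers, with 0 rows that name no gene and 0 columns of other samples. The deposited FPKM equalled the counts scaled by gene length and library total within a relative 0.001 for 100% of values and were not used further. Gene names came from the table for 14883 genes and from the reference table for 1342. Any 2 libraries of a cut differed by a chi-square of at least 29.8 per gene, so no library was counted as a duplicate.

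Counts were fitted with edgeR 4.0.16 in R 4.3.3 (TMM scaling, filterByExpr by cut, robust quasi-likelihood test) over all 40 libraries, with the contrast of TM minus the equally weighted mean of LDM, HM and PB and the 3 single pairs. Benjamini-Hochberg adjustment ran over all 11713 genes tested and the threshold was 0.05. Groups came from the titles, and PB1, whose source and tissue fields name the longissimus, was kept in PB. The 13 alternatives (2 of them added after the values were seen) were DESeq2 1.42.0, limma 3.58.1 voom, 3 other scalings, 2 other filters, the library number as a block and 5 sets of libraries left out; each library was also left out in turn. In a test on simulated data for the contrast with the mean and for the 3 pairs, 11713 genes were run and 100 changed at each size. A log2 change of 1 was recovered for 82% of genes against the mean and 62% in all 3 pairs, and a change of 2 for 99% and 97%. Of unchanged genes, 6 were called against the mean and 0 in all 3 pairs. The simulated other cuts shared a common mean per gene and libraries were drawn independently. The rates therefore do not cover genes that differ between those cuts.

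Genes were named by rule: those passing in all 3 pairs by the size of their smallest change, up to 3 per gene list or the first by p, and a fixed set of genes whatever their result. With the wider set this gave 81 genes, not all of which are described. Some further genes are not reported here. The members and lists were chosen with earlier results of these data known. Read counts without molecular identifiers limit precision, and intervals and floors cover counting error only. No sequence is shown.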

Additional observations from a re-analysis of the deposited data

Results flagged for a closer look

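In 72 groups of 10 libraries, 18 genes in 4 cuts, the gap of a library to its nearest neighbour was taken relative to the range of the group. The scale was log2 CPM with a prior count of 2, so a gap from 0 CPM depends on that count. In 6 groups the ratio was over Dixon's 95% critical value, where chance gives about 1 in 20. Levels below are in CPM. HOXA10 had 0.0491 CPM in TM7, a single count, and 0 in the other TM libraries. CEACAM1 was at 0 CPM in LDM1, with 0.358 to 1.60 in the other LDM libraries. The library labelled HM6 stood apart for a pair of genes, with CACHD1 at 8.38 CPM against 17.5 to 37.3 in the other HM libraries, and TBX1 at 204 CPM against 9.36 to 27.5. PTPRC was at 32.4 CPM in PB8 against 1.70 to 5.73 in the other PB libraries, and PPARGC1A at 518 CPM in PB5 against 25.9 to 120. The causes were not tested.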

How the results depend on the processing

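Against LDM the count of genes was 2347 to 3598 and against PB 2057 to 3375 over the 13 alternatives, all within 1.5 times the counts reported. Against the mean, 657 genes became 1035 with DESeq2, 1555 with limma-voom, 1408 without HM6, HM9, TM3 and TM7, 1425 without TM3 and TM7, 323 without the libraries numbered 8 and 343 without LDM3, LDM4, PB9 and PB10. Against HM, 90 became 199 with DESeq2 and 312 with limma-voom. The 7 genes of all 3 pairs became 16 with DESeq2, 22 with limma-voom, 17 without HM6, HM9, TM3 and TM7 and 21 without TM3 and TM7. With single libraries left out, the counts ran from 171 (without TM10) to 1240 (without TM7) against the mean, 52 to 135 against HM and 3 to 18 in all 3 pairs. The causes were not tested. Whether equal library numbers share an animal is not said, and the main fit did not treat them as pairs. Over 30 pairs the correlation of deviations ran from 0.0637 to 0.514 (median 0.286), and 27 were over 0.1. In 17 of the 30 the TM library correlated best with its own number among the 10 libraries of the other cut. Sharing between equal numbers may thus be present, and the main fit ignores it. With the number as a replicate block the counts were 1193 against the mean, 213 against HM and 21 in all 3 pairs. With the block the adjusted p against the mean was 0.0585 for EN1 (change 1.17), 0.137 for PMP2 (0.89) and 0.099 for HOXC6 (0.91), which were called without it, and 0.0421 for STAC2 (1.48) and 0.049 for EYA4 (-0.67), which were not.

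Of the named genes, 1 that was not called changed sign. The log2 change of PPARGC1A from the mean, 0.47, became -0.15 without TM2 and ran from there to 0.76 (without PB5). With totals of 12305913 to 17735722 counts, genes under about 1 CPM, such as MSTN and HOXA10 in TM, rest on few reads.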

Other observations

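DLK1, a membrane protein of the Notch ligand family that is known for muscle growth in sheep, did not reach the filter on low counts and is named after its values were seen. It had 195 counts in TM (7 to 53 per library), against 54 in LDM (0 to 16), 28 in HM (0 to 6) and 39 in PB (0 to 12). With no filter, its log2 change was 2.10 from the mean, 1.73 from LDM, 2.62 from HM and 1.94 from PB, and it passed in all 3 pairs by edgeR's quasi-likelihood test (adjusted p = 0.0152, 0.00826 and 0.00832). It did so in 5 of the 13 alternatives. With a library left out it reached the filter in 31 of 40 fits and passed in all 3 pairs in each of these. It reached the filter mainly through TM, where it was high, so these passes follow in part from the filter and are no separate support. In the other fits it was not tested.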
